A study of Mus musculus with 12 samples.

Results

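The transcription factors that build and divide the T cell lineage were followed in the thymus of mice that differed in Sry and in sex chromosome complement. The set held 9 genes: Zbtb7b, Runx1, Runx3, Gata3, Tox, Bcl11b, Tcf7, Lef1 and Satb1. Its members were all probe sets to which the platform's gene table gives 1 of these symbols. There were 25 such probe sets for 8 of the genes, out of 45101 probe sets on the array. No probe set carried the symbol Tcf7, so that gene was not analysed here. A total of 21 probe sets averaged 5 or more on the log2 scale and entered the tests, with at least 1 for each of the 8 genes. The other 4, 1 each of Zbtb7b, Runx1, Runx3 and Satb1, were below that floor.

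Thymus RNA of mice aged 7 to 8 weeks was hybridised to 12 one-colour Affymetrix arrays, 3 biological replicates in each of 4 groups. XXsry mice were gonadal males with an XX complement and Sry, XX mice were females without it, XY-sry mice were males with Sry beside an XY- complement, and XY- mice were females without Sry. Every array with Sry thus came from a gonadal male, and every array without it from a female. A difference by Sry therefore cannot be told apart from a difference by gonadal sex. The terms Sry effect, with Sry and without Sry are used below in that joint sense. All groups shared whole thymus as the tissue, and no treatment was recorded. The strain, the way Sry was carried, and whether a replicate was 1 mouse or a pool are not given in the sources used here. In a whole thymus, fewer cells of a type and less RNA per cell cannot be told apart.

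The factors act in sequence as a thymocyte matures. Tcf7 and Lef1, paired factors at the end of the Wnt pathway, and Gata3 start the programme under Notch signalling, and Bcl11b closes the routes to other lineages. Runx1 works from the progenitor onward, Satb1 and Tox act around positive selection, and Zbtb7b and Runx3 oppose each other in the choice between CD4 helper and CD8 cytotoxic fate.

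The arrays carried the marks of their labels. Xist, the RNA of the inactive X, read 11.1 to 11.63 in the XXsry and XX arrays, against 3.41 to 4.19 in the XY-sry and XY- arrays. Eif2s3y, a Y-linked gene, read 1.77 to 2.28 in the XXsry and XX arrays and 7.14 to 8.17 in the XY-sry and XY- arrays. The Sry probe set read 6.74 to 7.2 with Sry and 5.23 to 5.65 without. The mean of 8 thymocyte genes, such as Cd3e and Rag1, was 10.78 to 10.85 with Sry and 10.81 to 10.95 without, which matches the labelled tissue. XY- replicate 2 stood apart, with a mean correlation of 0.981 to the other arrays, where the other 11 had 0.986 to 0.991. Its 3' minus 5' difference of the actin control probes, a sign of RNA quality that rises with excess 3' signal, was 0.51. That was the lowest value, where the other arrays had 0.66 to 0.83, so this measure did not mark its RNA as the poorest. Results in which leaving out that array changed a call are given with and without it, as are the Bcl11b differences in XY-.

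Promoter windows of these factors were searched for words that RUNX, TCF/LEF and GATA factors recognise. RefSeq (GRCm38.p6) gave 19 windows, from 250 bases before to 50 after a transcript start, for 8 of the 9 genes. The motifs searched, on both strands, were TGTGGT for RUNX factors, CTTTGA for TCF and LEF factors, and AGATAA or TGATAA for GATA factors. None of these 4 words overlaps another in the windows printed. Among all 32851 windows, 16.8% held the RUNX word, 16% the TCF/LEF word and 18.6% a GATA word. Of the 19 windows, 3 held the RUNX word, 2 the TCF/LEF word and 1 a GATA word, and 5 held any of them. For none of these words was the share among the 19 above that of all windows. A match describes these letters and is not a measured site. The windows below are the only window of Bcl11b, which gave the 1 called probe set, and the 3 windows with 2 or more copies of a word. They run 5′ to 3′ on the gene's strand, and capitals mark the motif on either strand.
Bcl11b chr12:108003365-108003664, minus strand: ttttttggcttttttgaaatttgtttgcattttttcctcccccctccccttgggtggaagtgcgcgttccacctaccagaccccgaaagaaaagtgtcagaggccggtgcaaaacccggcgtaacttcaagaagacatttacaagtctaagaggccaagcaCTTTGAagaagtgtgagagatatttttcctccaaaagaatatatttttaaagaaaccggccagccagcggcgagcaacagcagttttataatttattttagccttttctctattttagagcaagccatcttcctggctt
Runx1 chr16:92826025-92826324, minus strand: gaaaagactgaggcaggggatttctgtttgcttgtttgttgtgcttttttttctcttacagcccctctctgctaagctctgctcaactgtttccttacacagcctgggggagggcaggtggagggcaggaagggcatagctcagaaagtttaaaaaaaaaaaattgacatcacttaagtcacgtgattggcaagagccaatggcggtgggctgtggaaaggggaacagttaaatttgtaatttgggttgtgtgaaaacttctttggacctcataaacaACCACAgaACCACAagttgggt
Runx3 chr4:135120395-135120694, plus strand: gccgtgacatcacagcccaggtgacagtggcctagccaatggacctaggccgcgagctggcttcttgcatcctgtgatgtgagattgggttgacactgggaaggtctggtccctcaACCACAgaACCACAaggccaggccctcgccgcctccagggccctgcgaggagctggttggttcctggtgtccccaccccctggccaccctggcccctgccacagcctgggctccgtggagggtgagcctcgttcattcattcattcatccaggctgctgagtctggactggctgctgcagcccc
Lef1 chr3:131156044-131156343, plus strand: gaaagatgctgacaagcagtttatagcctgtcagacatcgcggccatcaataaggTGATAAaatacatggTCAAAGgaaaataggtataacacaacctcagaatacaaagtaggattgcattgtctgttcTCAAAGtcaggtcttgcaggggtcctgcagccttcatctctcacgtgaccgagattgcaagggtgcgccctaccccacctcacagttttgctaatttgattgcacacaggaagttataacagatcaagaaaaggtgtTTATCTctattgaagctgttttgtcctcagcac
In the Bcl11b window the TCF/LEF word begins at position -89, counted from the start site at +1. Runx1 and Runx3 each hold 2 RUNX words placed 8 bases apart, at +29 and +37 in Runx1 and at -134 and -126 in Runx3. Among all windows, 1.81% held 2 or more RUNX words, 1.73% 2 or more TCF/LEF words and 3.26% 2 or more GATA words. The Lef1 window holds 2 TCF/LEF words, at -180 and -120, and 2 GATA words, at -195 and +18.

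Between animals with and without Sry, 1 of the 21 probe sets differed. It was a Bcl11b probe set (1452966_at), 1.16-fold higher with Sry. The other 20 did not pass, among them every tested probe set of Gata3, Lef1, Runx1, Runx3, Tox, Satb1 and Zbtb7b. The test was limma's moderated test on the 4 group means with Benjamini-Hochberg adjustment over 17925 probe sets at an adjusted p under 0.05, and the averaged Sry effect is the mean of XXsry minus XX and XY-sry minus XY-. Over all probe sets 6.56% passed in this comparison, so 1 of 21 (4.76%) was near the background. The median log2 difference of the members was 0.00, against 0.02 for all probe sets tested. Taken 1 probe set at a time, the 95% intervals lay within 0.5 on the log2 scale for all 21 probe sets, and within 0.3 for 18. They refer to array values of whole thymus, not to RNA per cell.

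No member passed in the remaining contrasts. Within XX animals 0 of 21 passed, with a background of 0.742%, and within XY- animals 0 of 21, with a background of 8.64%. For the complement effect, XX minus XY-, 0 of 21 passed averaged over Sry (background 0.0893%), without Sry (0.0781%) and with Sry (0.128%). For the interaction, the Sry effect in XX minus that in XY-, 0 of 21 passed, against 1.29% of all probe sets. A test of any difference among the 4 groups called 1 of 21, the same Bcl11b probe set (limma adjusted p = 0.047), against 3.99%. That call was lost on leaving out 10 of the 12 arrays one at a time, the exceptions being XX replicate 3 and XY- replicate 2, and also with the replicate block and the actin covariate. At an unadjusted p under 0.05, limma gave 5 members for the averaged Sry effect, 5 for the Sry effect in XX, 3 for that in XY- and 3 for the interaction. The shares of all probe sets at that level were 24.9%, 12.1%, 26.1% and 13.4%. For the complement effect the unadjusted counts were 2 averaged over Sry, 1 without Sry and 3 with Sry, beside 4.25%, 10.6% and 8.55% of all probe sets.

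**Figure D1:**
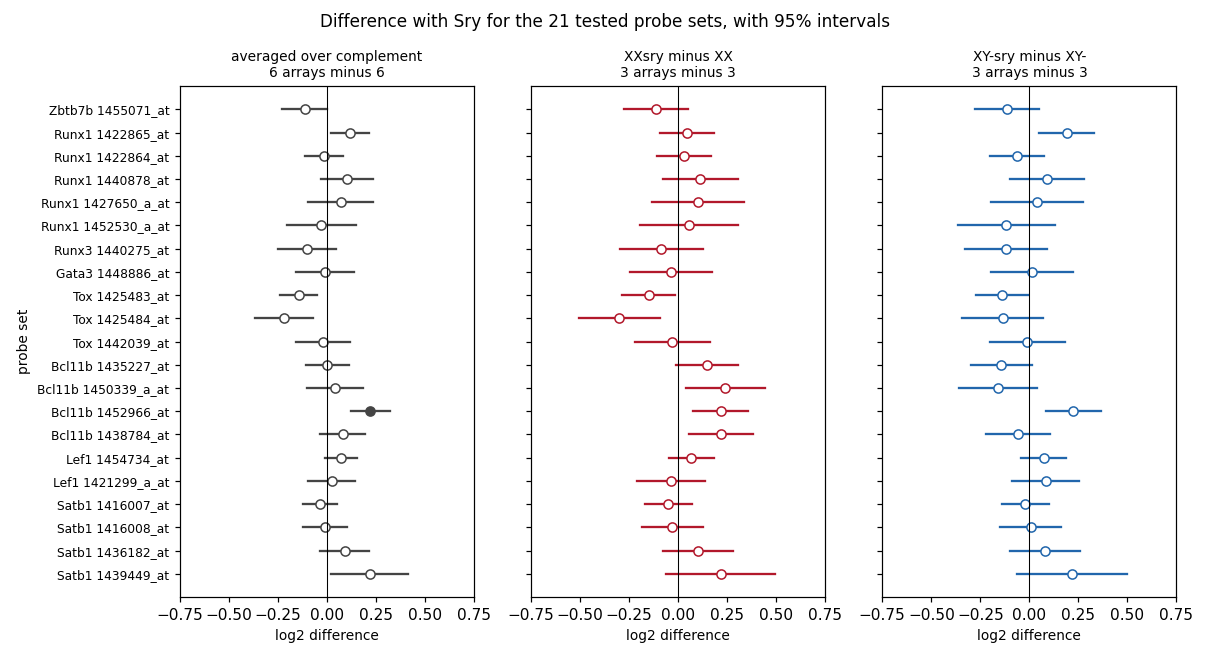
Log2 difference with Sry minus without (x axis) for the 21 tested probe sets (y axis), averaged over complement (left), in XX (middle) and in XY- (right). Points are limma estimates, bars are 95% intervals, and the filled point is the 1 probe set past the threshold, Bcl11b 1452966_at at 0.22.

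**Figure D2:**
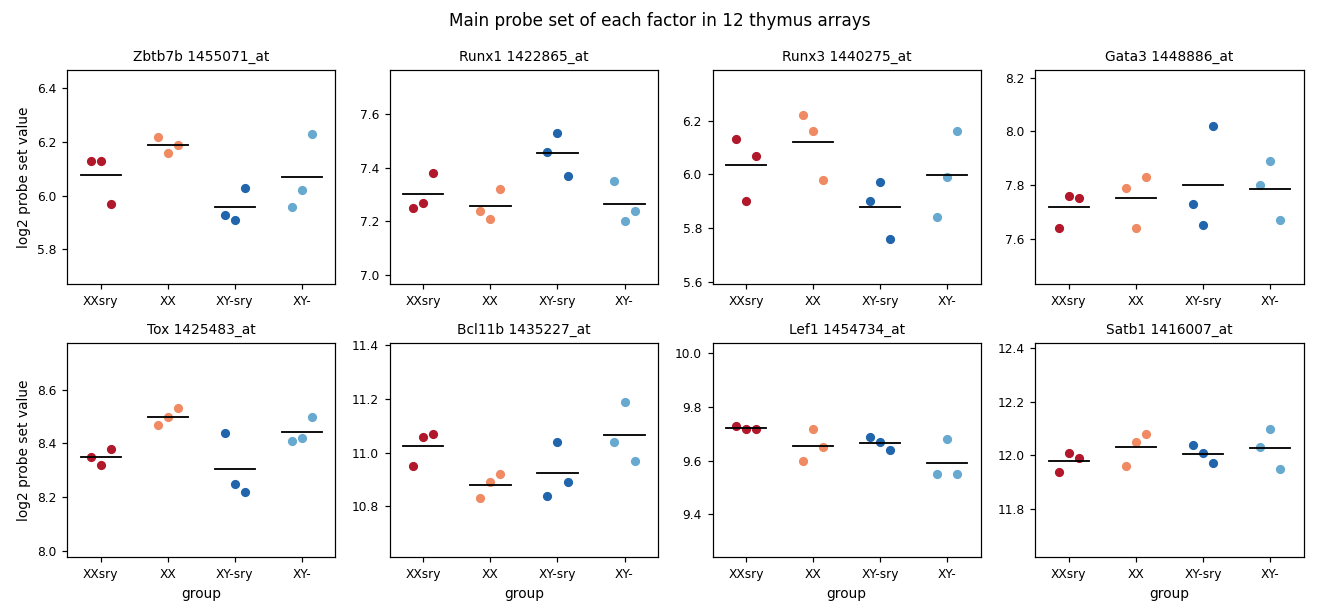
Deposited log2 values (y axis) of the probe set with the highest mean for each of the 8 genes, in 3 arrays of each group (x axis). Points are arrays, horizontal lines are group means, and each panel has its own y range, so levels are to be compared within a panel only. In none of the 8 panels did the difference with Sry pass the threshold.

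Bcl11b, a zinc-finger repressor that commits progenitors to the T lineage, had 4 tested probe sets. On 1452966_at, the log2 values were 9.97, 10.11 and 10.05 in XXsry thymus, against 9.77, 9.79 and 9.92 in XX thymus. They were 10.23, 10.18 and 10.05 in XY-sry thymus, against 9.96, 9.94 and 9.89 in XY- thymus. Each of the 6 arrays with Sry lay above each of the 6 without, which was so for 1 of the 21 probe sets and, in either direction, for 3.49% of all those tested. The means were 10.10 ± 0.095 with Sry and 9.88 ± 0.080 without (SD, n = 6 each). The averaged difference was 0.22 ± 0.045 (SE) on the log2 scale, limma adjusted p = 0.019. It was 0.22 in XX (adjusted p = 0.19) and 0.22 in XY- (adjusted p = 0.053), and the interaction was -0.01 (adjusted p = 0.98). Neither complement passed alone. Leaving out XY- replicate 2 gave an averaged difference of 0.22 (adjusted p = 0.021) and a difference in XY- of 0.23 (adjusted p = 0.079). The call was lost when no floor was set on the mean value (adjusted p = 0.053) and when the actin difference was a covariate (0.20, adjusted p = 0.068).

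The other 3 Bcl11b probe sets did not show this pattern. On 1450339_a_at, the values were 11.01, 11.19 and 11.09 in XXsry thymus, against 10.80, 10.88 and 10.89 in XX thymus, and 10.76, 10.98 and 10.92 in XY-sry thymus, against 11.01, 11.25 and 10.88 in XY- thymus. The XXsry arrays were above the XX arrays, while the XY-sry and XY- arrays overlapped with the lower mean in XY-sry. Its difference was 0.24 in XX and -0.16 in XY-, and the interaction was 0.40 ± 0.129 (SE; unadjusted p = 0.0096, limma adjusted p = 0.19). On 1435227_at, the probe set with the highest mean of the gene, values were 10.95, 11.06 and 11.07 in XXsry thymus, against 10.83, 10.89 and 10.92 in XX thymus, and 10.84, 11.04 and 10.89 in XY-sry thymus, against 11.04, 11.19 and 10.97 in XY- thymus. Again the groups were apart in XX and overlapped in XY-. The differences were 0.15 in XX and -0.14 in XY-, with an interaction of 0.29 (adjusted p = 0.23). On 1438784_at, values were 9.38, 9.46 and 9.53 in XXsry thymus, against 9.16, 9.26 and 9.30 in XX thymus, and 9.26, 9.44 and 9.18 in XY-sry thymus, against 9.36, 9.42 and 9.27 in XY- thymus. The differences were 0.22 in XX and -0.06 in XY-, with an interaction of 0.27 (adjusted p = 0.28). None of these 3 interactions passed. With the actin difference as a covariate they were 0.15 for 1435227_at, 0.20 for 1450339_a_at and 0.17 for 1438784_at (adjusted p of 0.66 to 0.70), and the differences in XY- were 0.00, 0.04 and 0.05. Without XY- replicate 2, which held the highest array of 1435227_at and 1450339_a_at, the 3 interactions were 0.23, 0.30 and 0.24, and the differences in XY- were -0.08, -0.06 and -0.02. All 3 interactions passed when arrays were weighted by their quality (adjusted p of 0.024 for 1435227_at, 0.018 for 1450339_a_at and 0.028 for 1438784_at). With those weights 7.1% of all probe sets passed for the interaction, so the weights raised calls throughout the table.

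The probe sets thus divided by how they moved across the 12 arrays. Pearson's r was 0.92, 0.82 and 0.78 among 1435227_at, 1450339_a_at and 1438784_at, and 0.16 to 0.42 between each of them and 1452966_at. These are descriptions over arrays that share 4 groups. All 4 read the same gene by its symbol, and their positions along the transcript are not given in the files used here. The Bcl11b call rests on 1 of 4 probe sets, and not on the one with the highest mean.

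**Figure D3:**
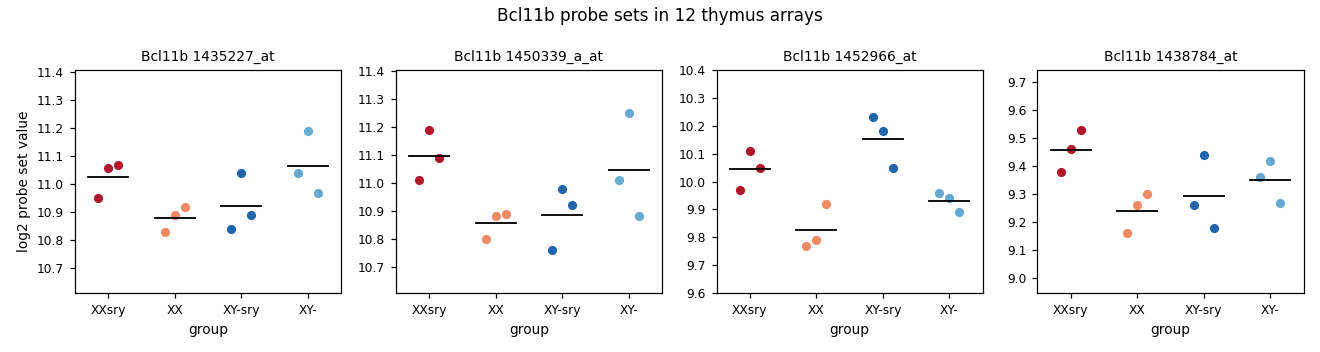
Deposited log2 values (y axis) of the 4 Bcl11b probe sets in 3 arrays of each group (x axis), with lines at group means. On 1452966_at both groups with Sry lie above both without, and on the other 3 the XXsry arrays lie above the XX arrays while XY-sry and XY- overlap.

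Among the genes with a single-symbol probe set, the closest to Bcl11b 1452966_at over the 12 arrays were Klf11, Svil and Unk. That probe set was picked for this after its values were seen, because no gene's probe set with the highest mean had passed. Over 9495 genes, Klf11, a Krüppel-like zinc-finger factor, had Pearson r = 0.922 and Spearman rho = 0.902. Svil, which encodes the cytoskeletal protein supervillin, had r = 0.919 and rho = 0.855. Unk, which encodes an RNA-binding zinc-finger protein, had r = 0.915 and rho = 0.937. Without XY-sry replicates 1 and 2, the arrays farthest from the median, r was 0.898 for Klf11, 0.883 for Svil and 0.949 for Unk. The points share the 4 groups, so this likeness includes the group differences.

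Gata3, the zinc-finger factor needed first for T commitment and again for CD4 cells, had 1 probe set. Its values were 7.64, 7.76 and 7.75 in XXsry thymus, against 7.79, 7.64 and 7.83 in XX thymus, and 7.73, 7.65 and 8.02 in XY-sry thymus, against 7.80, 7.89 and 7.67 in XY- thymus. The 4 groups overlapped throughout. The averaged Sry difference was -0.01, with a 95% interval of -0.16 to 0.14.

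Lef1, the partner of Tcf7 in early thymocytes, had 2 probe sets. On 1454734_at, values were 9.73, 9.72 and 9.72 in XXsry thymus, against 9.60, 9.72 and 9.65 in XX thymus, and 9.69, 9.67 and 9.64 in XY-sry thymus, against 9.55, 9.68 and 9.55 in XY- thymus. The means were higher with Sry in both complements, but the groups touched or overlapped in both. The averaged difference was 0.07 ± 0.038 (SE; limma adjusted p = 0.27). With array weights, which called 24.3% of all probe sets, this probe set passed, at 0.10 and an adjusted p of 0.028. The second probe set, 1421299_a_at, had a difference of 0.02 (adjusted p = 0.84).

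Runx1, the RUNX factor present from the progenitor onward, had 5 tested probe sets. Only 1422865_at, the one with the highest mean, had XY-sry arrays that were all above the XY- arrays. Its values were 7.25, 7.27 and 7.38 in XXsry thymus, against 7.24, 7.21 and 7.32 in XX thymus, and 7.46, 7.53 and 7.37 in XY-sry thymus, against 7.35, 7.20 and 7.24 in XY- thymus. The groups overlapped in XX. The difference was 0.19 in XY- (adjusted p = 0.084), 0.04 in XX and 0.12 averaged (adjusted p = 0.13). The averaged differences of the other 4 ran between -0.03 and 0.10. The 5 probe sets followed each other unevenly, with r of -0.35 to 0.81 over the 12 arrays.

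Runx3, the RUNX factor of CD8 cells, and Zbtb7b, also called ThPOK, the factor of CD4 helper cells, were each read by 1 tested probe set. For Runx3 1440275_at, values were 6.13, 5.90 and 6.07 in XXsry thymus, against 6.22, 6.16 and 5.98 in XX thymus, and 5.90, 5.97 and 5.76 in XY-sry thymus, against 5.84, 5.99 and 6.16 in XY- thymus. The groups overlapped in both complements, and the averaged difference was -0.10 ± 0.068 (SE; limma adjusted p = 0.38). For Zbtb7b 1455071_at, values were 6.13, 6.13 and 5.97 in XXsry thymus, against 6.22, 6.16 and 6.19 in XX thymus, and 5.93, 5.91 and 6.03 in XY-sry thymus, against 5.96, 6.02 and 6.23 in XY- thymus. The XXsry arrays were all below the XX arrays, and the XY- pair of groups overlapped. The averaged difference was -0.11 ± 0.053 (SE; adjusted p = 0.21). The pair that opposes each other in fate choice therefore had estimates of the same sign, neither past the threshold. Both probe sets read low, with means of 6.07 for Zbtb7b and 6.01 for Runx3 over the 12 arrays. The Sry probe set read up to 5.65 without Sry, so passing the floor of 5 does not by itself show expression.

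Tox, an HMG-box factor that CD4 cells need during positive selection, had 3 probe sets, and 2 of them came nearest to the threshold after Bcl11b. On 1425484_at, values were 7.79, 7.79 and 7.69 in XXsry thymus, against 7.98, 8.06 and 8.13 in XX thymus, and 7.89, 7.73 and 7.53 in XY-sry thymus, against 7.91, 7.68 and 7.97 in XY- thymus. The XXsry arrays were all below the XX arrays, and the XY-sry and XY- arrays overlapped. The averaged difference was -0.22 ± 0.067 (SE; limma adjusted p = 0.074). On 1425483_at, values were 8.35, 8.32 and 8.38 in XXsry thymus, against 8.47, 8.50 and 8.53 in XX thymus, and 8.44, 8.25 and 8.22 in XY-sry thymus, against 8.41, 8.42 and 8.50 in XY- thymus. Of the 6 arrays with Sry, 5 were below every array without it. The averaged difference was -0.14 ± 0.044 (SE; adjusted p = 0.068). The third probe set, 1442039_at, had a difference of -0.02 (adjusted p = 0.88).

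The side of the threshold depended on the setting for Tox. With all arrays kept, an intensity trend with robust settings called 1425483_at (limma adjusted p = 0.044) and 1425484_at (adjusted p = 0.048), and array weights called both as well (adjusted p of 0.041 and 0.0064). The trend setting called 7.9% of all probe sets and array weights 24.3%. Without XY-sry replicate 1, 1425484_at passed at -0.26 (limma adjusted p = 0.049) and 1425483_at at -0.18 (adjusted p = 0.029). Without XY- replicate 2, 1425484_at passed at -0.26 (adjusted p = 0.027). With the actin difference as a covariate it passed at -0.31 (adjusted p = 0.047). Over all alternatives the estimates kept their negative sign, from -0.31 to -0.17 for 1425484_at and from -0.18 to -0.11 for 1425483_at.

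Satb1, a chromatin organiser of thymocytes, had 4 tested probe sets. On 1416007_at, the one with the highest mean, values were 11.94, 12.01 and 11.99 in XXsry thymus, against 11.96, 12.05 and 12.08 in XX thymus, and 12.04, 12.01 and 11.97 in XY-sry thymus, against 12.03, 12.10 and 11.95 in XY- thymus. The groups overlapped in both complements. That probe set had the smallest spread of the set, with a range of 0.16 over the 12 arrays and an averaged difference of -0.04 (limma adjusted p = 0.63). On 1439449_at, values were 9.61, 9.47 and 9.46 in XXsry thymus, against 9.32, 9.25 and 9.32 in XX thymus, and 9.78, 9.41 and 9.75 in XY-sry thymus, against 9.30, 9.75 and 9.24 in XY- thymus. The XXsry arrays were all above the XX arrays, and XY- replicate 2 was among the high XY-sry arrays. The averaged difference was 0.22 ± 0.090 (SE; adjusted p = 0.16). Without XY- replicate 2 it was 0.30 and passed (adjusted p = 0.023), and the difference in XY- was 0.38 (adjusted p = 0.045). The 2 remaining tested probe sets had differences of -0.01 and 0.09.

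The widest spread belonged to one further Satb1 probe set, 1439315_at, whose mean was below the floor. Its values were 4.22, 4.41 and 4.28 in XXsry thymus, against 3.76, 3.65 and 3.83 in XX thymus, and 3.42, 3.82 and 3.73 in XY-sry thymus, against 4.90, 6.61 and 4.38 in XY- thymus. The arrays with Sry were all higher in XX and all lower in XY-. XY- replicate 2 was the highest of all, at 6.61. In the fit without the floor, the difference was -1.64 ± 0.386 (SE) in XY- (limma adjusted p = 0.041) and 0.56 in XX (adjusted p = 0.76). That fit called 2.77% of its 45037 probe sets in XY-. Without XY- replicate 2, a setting added after the values were seen, the difference in XY- was -0.98 (adjusted p = 0.0099).

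**Figure D4:**
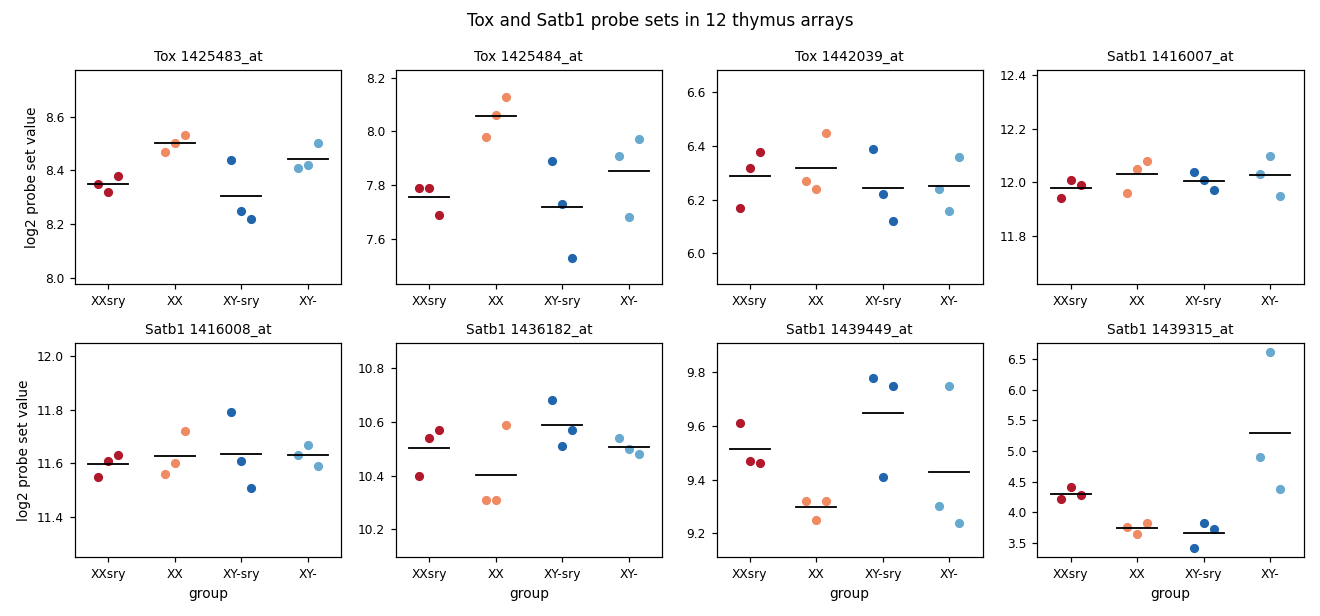
Deposited log2 values (y axis) of the 3 Tox and 5 Satb1 probe sets in 3 arrays of each group (x axis), with lines at group means. Satb1 1439315_at, the last panel, was below the floor, spans 3.42 to 6.61, and is highest in XY- thymus. Each panel has its own y range.

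The groups were also compared by whether their arrays overlapped. In XX, 8 of 21 probe sets had XXsry and XX arrays apart, against 21.3% of all probe sets. These 8 were 4 of Bcl11b and 1 of Satb1, higher in XXsry, and 2 of Tox and 1 of Zbtb7b, lower in XXsry. The 4 Bcl11b probe sets share a gene and are not separate cases. In XY-, 2 of 21 were apart, against 27.4% of all, and both were higher in XY-sry: Runx1 1422865_at and Bcl11b 1452966_at. The sign of the difference was the same in both complements for 13 of 21 probe sets (61.9%), where it was the same for 57.6% of all tested.

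For sex chromosome complement none of the members passed. The averaged differences, XX side minus XY- side, ran from -0.13 for Satb1 1439449_at to 0.14 for Runx3, and every adjusted p in this contrast was 1.00 after rounding. All 21 intervals lay within 0.5 and 20 within 0.3. Zbtb7b had 0.12 (unadjusted p = 0.042) and Bcl11b 1452966_at -0.11 (unadjusted p = 0.037). The median absolute difference of the members was 0.058, against 0.037 for all probe sets. Without Sry the complement differences ran from -0.19 to 0.20, with a median absolute value of 0.10 against 0.07. With Sry they ran from -0.15 to 0.21, with 0.083 against 0.057. Of the 21 intervals, 15 lay within 0.3 without Sry and 16 with Sry. In order of level, the groups ran XX, XXsry, XY- and XY-sry for the tested probe sets of both Zbtb7b and Runx3. Neighbours in that order overlapped, except XX and XXsry for Zbtb7b. The probe sets below the floor ran otherwise. The order was XXsry, XX, XY- and XY-sry for Zbtb7b 1420663_at, and XX, XY-, XY-sry and XXsry for Runx3 1421467_at.

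Other genes of the T lineage were read from 1 probe set each, the one with the highest mean. Among all 9496 genes read this way, 4.57% were higher and 2.6% lower with Sry, and the median was 0.02. Of 20 other T lineage factors, 0 rose and 3 fell with Sry, with a median of -0.03. The count that fell was 1 on leaving out any one of XX replicate 1, XX replicate 3, XY-sry replicate 1, XXsry replicate 2 or XXsry replicate 3, and 1 without a floor. The largest of these was Maf, a factor of helper cells, at -0.37 (limma adjusted p = 0.0052), followed by Id3, an inhibitor of E proteins, at -0.22 (adjusted p = 0.027). Of 12 family members and cofactors, 0 passed in either direction, with a median of 0.03. Cbfb, the partner of the RUNX proteins, was at 0.03 (adjusted p = 0.72).

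Some genes listed for the CD8 and CD4 helper programmes were lower with Sry. Whether Zbtb7b or Runx3 had a part in this was not tested. Of 8 genes of the CD8 programme, 6 fell and 0 rose, with a median of -0.49. Nkg7, a cytotoxic granule protein, was at -0.68 (limma adjusted p = 2e-04), and Ctsw, a cathepsin of cytotoxic cells, was at -0.60 (adjusted p = 5e-04). The mean of the 8 was 7.57 to 7.67 with Sry and 7.94 to 8.12 without, with no overlap. The coreceptor genes in that list did not pass: Cd8a was at -0.10 (adjusted p = 0.17) and Cd8b1 at -0.08 (adjusted p = 0.34). Of 10 genes of the CD4 helper programme, 3 fell and 0 rose, with a median of -0.17. The mean of the 10 was 7.90 to 8.04 with Sry and 8.10 to 8.25 without, also with no overlap. Icos, a costimulatory receptor, was at -0.78 (adjusted p = 1e-04), Cd28, another, at -0.36 (adjusted p = 0.0025), and Cd4 at -0.04 (adjusted p = 0.65). Without XY- replicate 2 the count of the helper list that fell was 5.

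Stage genes moved in both directions. Of 9 genes of the double-positive stage, 1 fell and 0 rose, with a median of -0.05. The 1 was Rag2, a recombinase subunit, at -0.19 (limma adjusted p = 0.022). The count of this list that fell was 2 without XY- replicate 2, and 0 on leaving out any one of XY-sry replicate 1, XXsry replicate 2 or XXsry replicate 3, and 0 without a floor. Without XY- replicate 1, 1 gene rose. Of 9 progenitor and alternative-lineage genes, 3 rose and 2 fell, with a median of -0.08. The count that rose was 1 on leaving out any one of XX replicate 1, XX replicate 3, XXsry replicate 2 or XXsry replicate 3, and 1 without a floor. The count that fell was 1 on leaving out any one of XY-sry replicate 3, XXsry replicate 2 or XXsry replicate 3. Il2ra, the interleukin-2 receptor alpha chain of early thymocytes, rose by 0.56 (adjusted p = 0.0066), and Notch3 rose by 0.31 (adjusted p = 0.029). Id2, an inhibitor of E proteins in innate lymphocytes, was at -0.61 (adjusted p = 9e-04), and Cd44 at -0.33 (adjusted p = 0.021). The complement effect, averaged over Sry, called 0 genes of these 6 lists, against 0.0632% of all genes higher and 0.0105% lower. With Sry, the complement effect called 1 of the 10 CD4 helper genes higher, against 0.0632% of all genes. The interaction also called 1 of those 10 higher, against 0.305% of all genes. The other lists had no gene called in either of these contrasts.

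Among markers of other cells, some B cell genes and 1 fibroblast and vessel gene passed for the averaged Sry effect. Of 6 B cell genes, 4 fell, with a median of -0.51, and their mean was 7.13 to 7.65 with Sry and 7.54 to 7.91 without. The count that fell was 2 without XXsry replicate 3 and 2 with the actin covariate. It was 5 without XY- replicate 2 and 6 with array weights. The mean of 5 neutrophil genes was 5.09 to 6.52 with Sry and 6.16 to 7.93 without, with a median of -1.08. Of the 5, 0 passed, 4 had an adjusted p under 0.1, and 2 passed without XY- replicate 2 or without XXsry replicate 3. Of 8 dendritic cell and macrophage genes 0 passed. The count that fell was 2 without XY- replicate 2 and 2 with array weights. It was 1 in some other alternatives, such as quantile normalization and the replicate block. The mean of these 8 genes was 8.73 to 8.99 with Sry and 8.85 to 9.12 without. Of 8 thymic epithelium genes 0 passed, with a median of 0.04. In some alternatives, such as quantile normalization and the replicate block, 1 of them fell. With array weights 2 rose and 2 fell. Of 5 fibroblast and vessel genes 1 rose, Dcn, at 0.40 (limma adjusted p = 0.0075). The actin difference was 0.71 to 0.76 in XXsry and 0.66 to 0.77 in XX thymus, while it was 0.74 to 0.83 in XY-sry and 0.51 to 0.69 in XY- thymus, with no overlap in that pair. As a covariate it reduced the probe sets called for the Sry effect in XY- to 54 of 17925, against 1549 without it, and those for the interaction to 1, against 232. The part of these markers in the Bcl11b and list results was not tested.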

How the data were processed

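Biotin-labelled RNA made from 10 µg of thymus total RNA was read on 12 one-colour arrays. The values the authors deposited are on the log2 scale, 1 per probe set. Per the submitters' processing notes they come from RMA, of which no version is named in the sources used here. Probe sets were named from the platform's gene table, which gives 34958 of 45101 a single symbol, 932 several and 9211 none. The 64 control probe sets were left out, and 17925 with a mean of at least 5 were tested. A model of the 4 group means was fitted with limma 3.58.1 in R 4.3.3 over all arrays, with Benjamini-Hochberg adjustment over all tested probe sets and a threshold of 0.05. The fit had 8 residual and 3.71 prior degrees of freedom, and the number of arrays limits the precision: the median standard error of a member was 0.055 for an averaged effect. The script was tested on simulated data. Every probe set of a member is accounted for. From the other lists, up to 2 genes in each direction with the smallest p are named, with Cd4, Cd8a, Cd8b1 and Cbfb whatever their values. The members and lists were chosen with earlier results of these data known. No 2 arrays held identical values, and array correlations were 0.972 to 0.996. Alternatives changed the floor (none, or 6), the scaling (quantile normalization or median centring), the variance model (robust settings with an intensity trend, or array weights), the call rule (an adjusted p under 0.1, or a minimum difference of 0.5) and the probe sets (autosomal ones, or 1 for each gene). Others fitted just the groups being compared, took the replicate number as a block or the actin difference as a covariate, or left out each array. Promoter windows were scanned in Python 3.11.15.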

Additional observations from a re-analysis of the deposited data

Results flagged for a closer look

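Satb1 1439315_at stood out because its arrays moved opposite ways in the 2 complements: all XXsry arrays were above all XX arrays, and all XY-sry arrays were below all XY- arrays. The Sry effect in XX minus that in XY- was 2.20 on the log2 scale in the fit without a floor (limma adjusted p = 0.12). Without XY- replicate 2, whose value of 6.61 was the highest, it was 1.54 and passed (adjusted p = 0.019). The probe set is below the floor of 5 on average.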

How the results depend on the processing

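The 1 called member, Bcl11b 1452966_at, kept the sign of its averaged Sry difference under every alternative run. Some estimates that were not called did change sign. For the averaged Sry effect, Bcl11b 1435227_at did so in 7 of 24 alternatives. For the interaction, Satb1 1439449_at did so in 16 of 23. For the averaged Sry effect, where 1 passed, the count was 0 without a floor, 0 with 1 probe set per gene and 0 with a log2 difference of at least 0.5, and it was 3 with an intensity trend and robust settings, 5 with array weights and 3 at an adjusted p under 0.1. Leaving out each array gave 1 to 3, with 3 without XY-sry replicate 1 (3.79%) and 3 without XY- replicate 2 (9.73%). For the Sry effect in XX, where 0 passed, array weights gave 5 (7.36%). These were every tested Bcl11b probe set and Tox 1425484_at. For that in XY-, where 0 passed, Bcl11b 1452966_at alone passed with a floor of 6 (9.94%), with median centring (10.4%) and with an intensity trend (10.2%). The count was 1 without a floor (2.77%), where 25 were tested and the 1 was Satb1 1439315_at. It was 2 with array weights (23.7%) and at an adjusted p under 0.1 (15.5%). Leaving out each array gave 0 to 1, with 1 without XX replicate 3 (8.51%) and without XY- replicate 2 (7.33%). Array weights gave 4 for the complement effect without Sry (8.24%) and 3 for the interaction (7.1%), where 0 passed. For any difference among the 4 groups, where 1 passed, the count was 10 with array weights (30.9%). It was 0 without a floor (1.19%), with 1 probe set per gene (4.02%), with the replicate block (4.6%) and with the actin covariate (1.18%). On leaving out each array it was 0 to 1, with 0 for 10 of the 12 arrays. Over all probe sets, array weights called 4361 for the averaged Sry effect, where 1176 passed without them. The actin covariate called 865, and among the members Tox 1425484_at in place of Bcl11b 1452966_at. The cause of these shifts was not tested.

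Bcl11b 1452966_at kept an estimate of 0.20 to 0.25 and an adjusted p under 0.05 in 21 of 23 alternatives. The main fit did not pair same-numbered arrays. Their deviations from the group means correlated at -0.083 to 0.306 over 18 pairs, 8 of them over 0.1. The mean was 0.073, against -0.037 for arrays of different number. Among arrays of other groups, 8 of 12 arrays correlated best with one of their own number. Whether same-numbered arrays shared a batch was not tested. With the replicate block, 1318 probe sets and 1 member passed for the averaged Sry effect. Median centring shifted the median of all probe sets by 0.01 and quantile normalization by -0.01. For the averaged Sry effect, 3 of the 21 intervals reached past 0.3 on the log2 scale, 1 of them that of the called Bcl11b probe set.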
